A study of Mus musculus with 9 samples.

Results

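Macrophages activated through CD40 were exposed to either of 2 TRAF-STOP compounds, and the data were read here for what the compounds did jointly relative to vehicle. All 6 arrays labelled with a compound and all 3 labelled as vehicle were used, which is 9 of the 9 arrays of the study. The pooled change of a gene was the average of the 2 compound group means minus the vehicle mean, so that each compound had the same weight. The sample labels alone, and no measured value, chose the arrays.

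Bone marrow-derived macrophages of C57Bl/6 mice were the cells in every group, grown in RPMI with 15% L929-conditioned medium, which supplies the macrophage growth factor M-CSF. One group received TRAF-STOP 6877002 for 1 h (3 arrays), another received TRAF-STOP 6860766 for 1 h (3 arrays), and the last received vehicle for 1 h (3 arrays). For 8 h thereafter each culture received FGK45 (25 ug/ml), an antibody that activates CD40, so vehicle stands for activated macrophages, and resting macrophages were not among the arrays. No compound dose is stated in the labels. They number the mice without saying in words whether 1 animal gave cells to several groups, so p-values measure only the spread between these samples, which may be partly technical.

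CD40 belongs to the tumour necrosis factor receptors, has no enzyme activity of its own and signals by recruiting TRAF adaptor proteins to its cytoplasmic tail. TRAF6 binds a site near the membrane, other TRAF proteins bind a separate site, and the adaptors lead to NF-kB and MAP kinase activation and to the release of cytokines and chemokines by macrophages. TRAF-STOPs are small molecules made to block the contact between CD40 and TRAF6, which has been studied in macrophages for its part in atherosclerosis.

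Of the 45281 probes, 33.7% to 35.2% were detected per array, the median raw intensity was 98.7 to 113, and arrays of 1 group correlated at r = 0.993 to 0.996 across features. The test covered 11406 features, each the brightest detected probe of a gene or an unnamed probe. Macrophage markers were detected for 9 of the 10 genes on the array, and 0 of the 9 passed limma's pooled test, with 2 at an unadjusted p under 0.05. None of the 7 T cell markers on the array was detected on 3 or more arrays. The arrays lay on 4 slides that the groups shared unevenly: slide 1 held 6860766 replicates 1 and 2 with vehicle replicate 1, and slide 4 held 6877002 replicate 3 with vehicle replicate 3. Slide 2 held vehicle replicate 2, and slide 3 held 6877002 replicates 1 and 2 with 6860766 replicate 3. Slides 1 and 2 formed slide set 1, and slides 3 and 4 formed slide set 2, which held every 6877002 array. The difference between compounds is therefore partly mixed with slide set. So is the pooled change, since vehicle replicates 1 and 2 were in slide set 1. On the axis of largest variation between arrays (28.6% of the variance), the slide sets separated. Slide set 1 arrays lay at 7.38 to 13.8 on it, and slide set 2 arrays at -13.3 to -1.27. RNA came from whole cultures, so fewer cells of a kind and less RNA per cell cannot be told apart.

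The pooled comparison asked which genes CD40-activated macrophages expressed differently when a TRAF-STOP was present, whichever compound it was. The growth factor gene Pdgfa and the cytokine receptor gene Il7r had the 2 largest rises, and Csf2, the gene of the growth factor GM-CSF, had the largest fall among named genes. Of 11406 features, 244 (2.14%) passed limma's test at an adjusted p under 0.05, 137 higher (1.2%) and 107 lower (0.938%), and 4 changed by over 1 log2 unit. An unadjusted p under 0.05 was found for 1514 features, and the median change over all features was 0.00 on the log2 scale. With arrays scaled to a common median in place of equal distributions, 155 passed, 103 higher (66.5%, against 56.15% in the test above) and 52 lower. The number of calls was 111 without vehicle replicate 2 and 154 without 6877002 replicate 1. In a plain count, all 6 compound arrays lay above all 3 vehicle arrays for 300 features and below them for 305, together 5.3% of all features.

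The pooled mean joined responses of different kinds, because the compounds also differed from each other. Set against the same vehicle arrays one at a time, 6877002 had 341 calls (2.99%) and 6860766 had 328 (2.88%). Of 11406 features, 515 (4.52%) passed the test of 6877002 minus 6860766, a contrast that sets no vehicle array against them. In 379 of these (3.32%) the level was higher with 6877002, and in 136 (1.19%) it was higher with 6860766. With slide set as a block, 369 features passed this test of the difference. Among the 244 pooled calls, 71 also passed the test of the difference and 173 did not. For 236 of the 244, both compound means lay on the same side of the vehicle mean, which a pooled call itself favours. Of the 48 features that rose in the pool and differed between compounds, 41 were higher with 6877002 than with 6860766. Of the 23 that fell in the pool and differed, 17 had the lower level with 6860766. Over all 515 features that differed, the level was lower with 6860766 in 379 (73.6%), so the 17 of 23 is close to that share. Conversely, 405 of the 515 features that differed had compound means on opposite sides of vehicle, and 397 of those 405 had no pooled call. When the 6 compound arrays were fitted as 1 group, so that the difference between compounds counted as spread, 81 features passed, 39 higher and 42 lower.

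**Figure D1:**
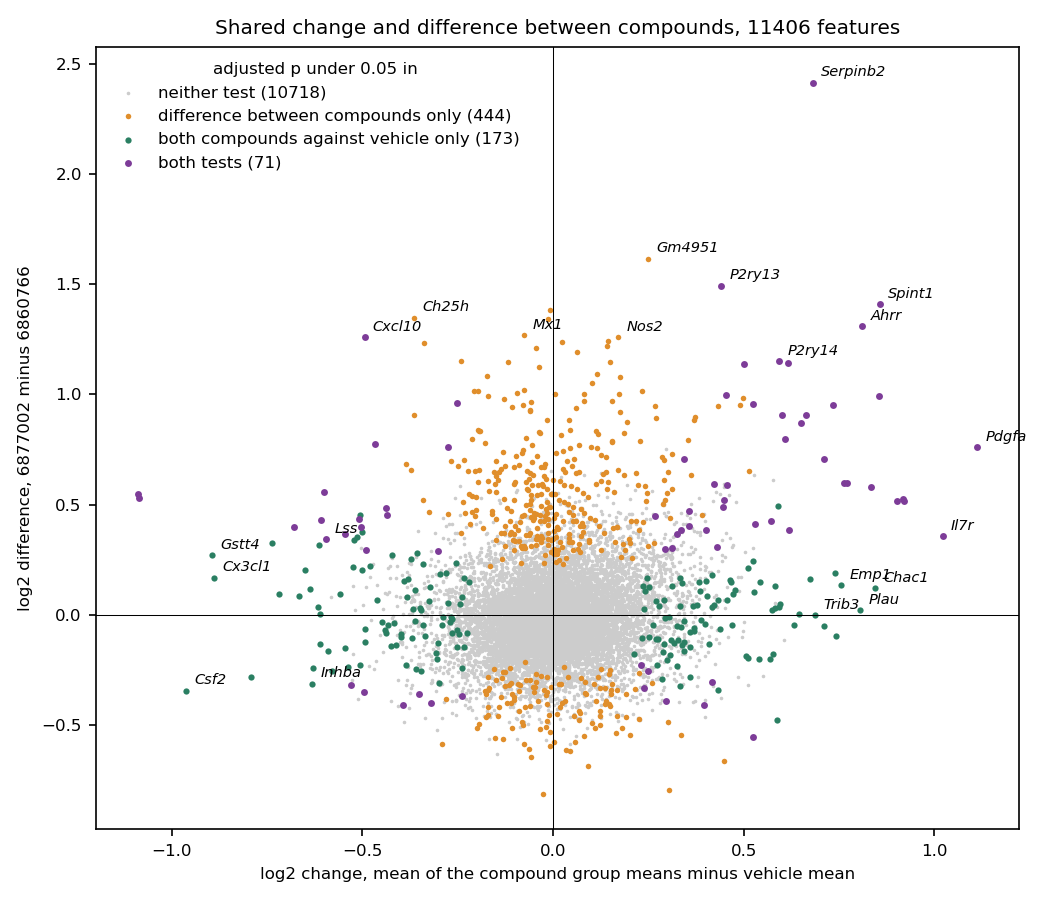
Each point is 1 of 11406 features, placed by its pooled log2 change against vehicle (x axis) and by its log2 difference, 6877002 minus 6860766 (y axis). Colours give the tests passed at an adjusted p under 0.05: 173 features passed the pooled test alone, 71 passed both and 444 passed the difference alone. Chac1, Plau and Trib3 lie far to the right and close to the horizontal line, while Serpinb2, Ahrr and Spint1 lie high above it.

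The receptor was slightly lower with the compounds, and its adaptors were not called. Cd40 had log2 values of 13.07, 13.05 and 13.09 with 6877002 and 13.01, 13.06 and 12.91 with 6860766, against 13.21, 13.35 and 13.25 with vehicle. All 6 compound arrays were below all 3 vehicle arrays. The pooled change was -0.24 ± 0.05 (SE, limma adjusted p = 0.0223), and the other 3 Cd40 probes changed by -0.28, -0.26 and -0.24. An exact two-sided permutation of 6 arrays against 3 gave p = 0.0119, the smallest that the 84 arrangements allow, and 0.214 after adjustment over the 18 genes tested this way. In limma the adjusted p was 0.177 without vehicle replicate 2 and 0.249 with slide as a block, where the change was -0.16.

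Of 21 measured genes of CD40 and TRAF signalling, Cd40 was the 1 that fell (0.938% of all features did), 0 rose and 20 did not pass limma's test. An unadjusted p under 0.05 was found for 2 of the 21, and the median change was -0.04. Traf6, the adaptor that the compounds were made to keep from CD40, had log2 values of 9.30, 9.18 and 9.28 with 6877002 and 9.30, 9.25 and 9.37 with 6860766, against 9.30, 9.32 and 9.33 with vehicle. The groups overlapped, and the pooled change was -0.04, with a 95% interval of -0.17 to 0.10. Its other 2 probes changed by 0.09 and 0.20. Traf1 and Traf5, which encode further adaptors of the receptor, changed by -0.04 (interval -0.19 to 0.12) and -0.04 (-0.31 to 0.22), and Map3k14, the kinase that starts the alternative NF-kB pathway, by -0.09 (-0.33 to 0.14). For Traf1 and Traf5, too, another probe of the gene changed in the opposite direction.

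NF-kB subunits and inhibitors, the transcription factors downstream of the adaptors and the proteins that restrain them, had 2 falls among 15 measured (0.938% of all features fell). N4bp1, which encodes a suppressor of NF-kB-driven cytokine genes, fell by 0.39 on the log2 scale (SE 0.07, limma adjusted p = 0.00359). Nfkbiz, whose nuclear product IκBζ helps to switch on secondary response genes, fell by 0.24 (SE 0.06, limma adjusted p = 0.0422), and this call was lost whichever of 8 of the 9 arrays was left out. Rela, Relb and Nfkb2 changed by 0.10 (interval -0.04 to 0.25), 0.00 (-0.18 to 0.18) and 0.04 (-0.16 to 0.24). Tnfaip3, the feedback inhibitor A20, had -0.01 (-0.13 to 0.12), and Nfkbia, which encodes IκBα, had -0.17 (-0.30 to -0.04; limma adjusted p = 0.208).

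NF-kB target genes had 2 rises (1.2% of all features rose) and 0 falls among 29 measured, with a median of -0.04. The risers were Plau and Irf1, described below with the proteases and the interferon genes. Of the inflammatory outputs described whatever their values, Tnf, Il1b, Ccl2 and Icam1 were not called: the pooled change was -0.06 (interval -0.20 to 0.07) for Tnf, 0.02 (-0.09 to 0.14) for Il1b, 0.04 (-0.12 to 0.20) for Ccl2 and -0.06 (-0.19 to 0.07) for Icam1. Il6 had log2 values of 9.22, 9.24 and 8.56 with 6877002 and 8.50, 8.20 and 9.41 with 6860766, against 9.24, 9.43 and 9.40 with vehicle. Within each compound the replicates disagreed, 1 or 2 of them lying close to vehicle. Its pooled change was -0.50 ± 0.18 (limma adjusted p = 0.215). Without 6860766 replicate 3 the change was -0.68 (adjusted p = 0.000954), and with slide as a block it was -0.88 (adjusted p = 7.16e-06).

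Several secreted ligands fell with both compounds. Of 24 cytokine genes measured, 6 fell (0.938% of all features did), 2 rose (1.2% did) and 16 did not pass, and the median was -0.08. Csf2 had log2 values of 6.68, 6.80 and 6.69 with 6877002 and 6.83, 7.02 and 7.34 with 6860766, against 7.84, 7.81 and 7.91 with vehicle. No compound array reached any vehicle array. The pooled change was -0.96 ± 0.10 (limma adjusted p = 2.18e-05), a level 0.513 times that of vehicle, and the difference between compounds was -0.34 with an interval of -0.60 to -0.09 (adjusted p = 0.13). The call held without any 1 array and in each other setting tried, where the change ran from -1.08 to -0.62. Inhba, the subunit of activin A, fell by 0.63 on the log2 scale (SE 0.11, limma adjusted p = 0.00382), with values of 7.50 to 8.11 with 6877002 and 8.11 to 8.29 with 6860766, against 8.45 to 8.86 with vehicle.

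The other 4 cytokines that fell, named after their values were seen, were Il1a (-0.49 ± 0.08, limma adjusted p = 0.00133), Il12a (-0.51 ± 0.12, 0.031), Ebi3 (-0.29 ± 0.06, 0.0122) and Osm (-0.23 ± 0.06, 0.0487). Il1a encodes interleukin-1 alpha, Il12a and Ebi3 encode subunits of the interleukin-12 family, and Osm encodes oncostatin M. The Il1a call held without any 1 array, while those on Ebi3, Il12a and Osm were lost without any 1 of 2, 5 and 8 of the 9 arrays.

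The cytokines that rose were Pdgfa and Il1rn. Pdgfa encodes the A chain of platelet-derived growth factor, a mitogen for smooth muscle cells and fibroblasts. Its log2 values were 9.45, 9.52 and 9.31 with 6877002 and 8.60, 8.63 and 8.76 with 6860766, against 7.96, 7.75 and 8.08 with vehicle. The 3 groups formed separate steps with 6860766 in the middle. The pooled change was 1.11 ± 0.08 (2.16-fold, limma adjusted p = 2.06e-07), and 6877002 exceeded 6860766 by 0.76 (interval 0.57 to 0.96, adjusted p = 2.56e-05). Il1rn, the antagonist of the IL-1 receptor, rose by 0.53 ± 0.09 (limma adjusted p = 0.0022), with changes of 0.73 for 6877002 and 0.32 for 6860766 that differed from each other (adjusted p = 0.0242). With the compound arrays as 1 group its adjusted p was 0.0942.

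Chemokines, the attractants for other leukocytes, had 3 falls (0.938% of all features fell) and 0 rises among 19 measured, with a median of -0.06. Cx3cl1, or fractalkine, a membrane-anchored ligand for monocytes, had log2 values of 6.56, 6.36 and 6.44 with 6877002 and 6.16, 6.27 and 6.42 with 6860766, against 7.17, 7.35 and 7.26 with vehicle. All compound arrays lay below all vehicle arrays, and the pooled change was -0.89 ± 0.10 (limma adjusted p = 3.55e-05). Ccl17, a ligand of the receptor CCR4, changed by -0.61 ± 0.11 (adjusted p = 0.00258), by -0.60 with 6877002 and -0.63 with 6860766. Neither gene passed the test between compounds, with differences of 0.17 (interval -0.08 to 0.41) for Cx3cl1 and 0.04 (-0.22 to 0.29) for Ccl17. The third chemokine, Cxcl10, was lower than vehicle with 6860766 alone and is described with the interferon genes.

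Of 22 cytokine and chemokine receptor genes measured, 3 rose (1.2% of all features did) and 0 fell, with a median of 0.00. Il7r, the shared chain of the receptors for IL-7 and TSLP, had log2 values of 10.38, 10.51 and 10.39 with 6877002 and 10.19, 9.94 and 10.08 with 6860766, against 9.39, 9.11 and 9.19 with vehicle. Every compound array was above every vehicle array, and the change was 1.02 ± 0.07 (2.03-fold, limma adjusted p = 2.06e-07). Other Il7r probes changed by 0.94 and 0.15. Il15ra, which presents IL-15 to other cells, and Csf2rb2, a mouse beta chain of the IL-3 receptor, changed by 0.52 ± 0.11 and 0.36 ± 0.08 in the pool (adjusted p = 0.0148 and 0.0144). These pooled values were averages of unequal parts: Il15ra changed by 1.00 with 6877002 and 0.05 with 6860766, and Csf2rb2 by 0.59 with 6877002 and 0.12 with 6860766. Their adjusted p with the compound arrays as 1 group was 0.473 and 0.336. The other 4 Il15ra probes changed by 0.02 to 0.18, and the mean of its probes changed by 0.19 (adjusted p = 0.464).

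Cd28, known as a co-stimulatory receptor of T cells, rose as well. It had log2 values of 7.77, 7.60 and 7.65 with 6877002 and 7.08, 7.11 and 7.03 with 6860766, against 6.78, 6.68 and 6.37 with vehicle, so the groups did not overlap. The pooled change was 0.76 ± 0.10 (limma adjusted p = 0.000156), and 6877002 exceeded 6860766 by 0.60 (adjusted p = 0.00329). The T cell markers Cd3d, Cd3e, Cd3g, Cd4, Cd5, Cd8a and Thy1 were all below detection, and their summed level on the linear scale was 149 to 161 with 6877002, 148 to 153 with 6860766 and 146 to 152 with vehicle.

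G protein-coupled receptors and their regulators, which sense nucleotides, lipids and chemokines, had 4 rises and 2 falls among 17 measured, with a median of 0.08. Over all features 1.2% rose and 0.938% fell. Rgs1, which shortens signalling from chemokine receptors, had log2 values of 11.44, 11.33 and 11.46 with 6877002 and 10.68, 10.65 and 10.78 with 6860766, against 10.23, 10.48 and 10.32 with vehicle. The groups formed steps as for Pdgfa, and the pooled change was 0.71 ± 0.06 (limma adjusted p = 2.24e-06), with 1.06 for 6877002 and 0.36 for 6860766. Lpar6, a receptor for lysophosphatidic acid, and P2ry14, a receptor for UDP-sugars, changed by 0.66 ± 0.08 and 0.59 ± 0.06 in the pool, but by 0.21 and 0.02 with 6860766. P2ry13, a receptor for ADP, had a pooled change of 0.44 although 6860766 lay below vehicle (-0.31). Gpr18, a receptor for lipid mediators, changed by -0.46 ± 0.08 (adjusted p = 0.00315), by -0.43 with 6877002 and -0.50 with 6860766. With the compound arrays as 1 group the adjusted p was 0.0761 for Rgs1 and 0.238, 0.449 and 0.724 for Lpar6, P2ry14 and P2ry13, against 0.0149 for Gpr18.

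**Figure D2:**
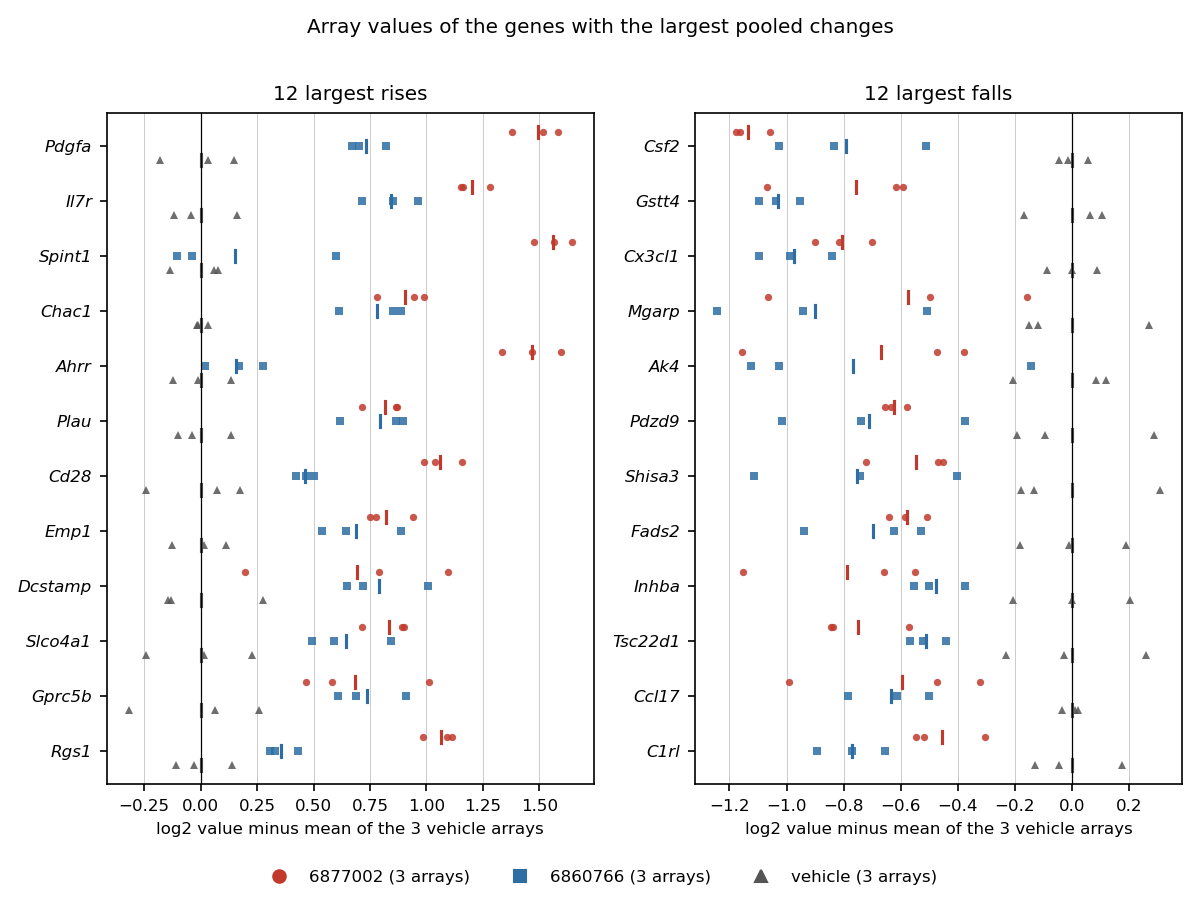
Each symbol is 1 array's log2 value minus the mean of the 3 vehicle arrays (x axis) for the 12 named genes with the largest pooled rises (left) and the 12 with the largest pooled falls (right), with both compound means on the same side of vehicle. Short vertical bars are group means of 3 arrays. For Spint1 and Ahrr the 6860766 arrays lie near vehicle, while for Chac1, Plau and Emp1 the compounds lie together.

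Genes of extracellular proteolysis had 4 rises (1.2% of all features rose) and 1 fall (0.938% fell) among 20 measured, with a median of 0.16. Plau encodes urokinase, which turns plasminogen into plasmin. Its log2 values were 8.12, 7.96 and 8.12 with 6877002 and 8.15, 8.11 and 7.86 with 6860766, against 7.38, 7.21 and 7.15 with vehicle. The compounds overlapped each other fully and vehicle not at all, with a pooled change of 0.80 ± 0.09 (1.75-fold, limma adjusted p = 2.63e-05) and a difference of 0.02 (interval -0.19 to 0.24). Mmp12, the macrophage elastase, rose by 0.58 ± 0.10 (adjusted p = 0.00236), and with slide as a block by 0.38 (adjusted p = 0.0582). Spint1, a membrane-bound inhibitor of serine proteases, had 7.44, 7.52 and 7.35 with 6877002 and 6.47, 5.84 and 5.77 with 6860766, against 5.95, 5.74 and 5.93 with vehicle. Of the 6860766 arrays, replicate 1 alone stood above the vehicle arrays, while the 6877002 arrays all did. The pooled change of 0.86 ± 0.14 combined 1.56 with 6877002 and 0.15 with 6860766, and its adjusted p with the compound arrays as 1 group was 0.385.

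Emp1, Slco4a1, Gprc5b and Dcstamp completed the 12 largest rises. Emp1, a tetraspan membrane protein, had log2 values of 11.54, 11.70 and 11.51 with 6877002 and 11.65, 11.41 and 11.30 with 6860766, against 10.87, 10.63 and 10.78 with vehicle, a pooled change of 0.76 ± 0.08 (limma adjusted p = 8.12e-06). Slco4a1, an organic anion transporter, rose by 0.74 ± 0.09 (adjusted p = 0.000104), and like Emp1 its compound arrays lay above all vehicle arrays. Gprc5b, an orphan receptor induced by retinoic acid, rose by 0.71 ± 0.15 (adjusted p = 0.0164), a call lost without vehicle replicate 2 (adjusted p = 0.0702) or 3 (0.112). Dcstamp, which is needed for the fusion of macrophages into multinucleated cells, had log2 values of 4.82, 5.72 and 5.41 with 6877002 and 5.63, 5.34 and 5.27 with 6860766, against 4.90, 4.49 and 4.48 with vehicle, with 1 compound array inside the vehicle range. It was below detection on all 3 vehicle arrays and was detected on 2 of the 3 6877002 arrays. With vehicle set at no less than the lowest detected signal, it was 1.37-fold higher with the compounds, a value that was not tested. With undetected signals taken as measured, the pooled change was 0.74 ± 0.18 (limma adjusted p = 0.0339). This call was lost in turn without 6 of the 9 arrays, with a highest adjusted p of 0.22 without vehicle replicate 2. Of 6 osteoclast markers measured Dcstamp was the 1 that rose (1.2% of all features did). The summed linear level of the 8 on the array was 617 to 727 with 6877002, 648 to 917 with 6860766 and 596 to 689 with vehicle. The part of these values in the Dcstamp result was not tested.

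Genes of the ATF4 amino acid stress response were among those that rose. ATF4 is a transcription factor made when amino acids run short or the endoplasmic reticulum is stressed, and it induces enzymes of amino acid synthesis, transporters and regulators of cell survival. Of 29 measured genes, 6 rose (1.2% of all features did), 0 fell and 23 did not pass limma's test, the median was 0.18, and 27 of the 29 values were positive, against 5716 of 11406 over all features. All 6 compound arrays lay above all vehicle arrays for 11 of the 29 and below them for 0, against 5.3% of all features that did not overlap in either direction. None of the 29 passed the test between the compounds, and the medians were 0.17 with 6877002 and 0.20 with 6860766. The median was 0.19 on slide 1, from 6860766, and 0.16 on slide 4, from 6877002.

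Chac1, which degrades glutathione, had log2 values of 9.58, 9.42 and 9.63 with 6877002 and 9.25, 9.52 and 9.49 with 6860766, against 8.62, 8.63 and 8.67 with vehicle. Its compound arrays were all above vehicle and mixed among themselves, with a pooled change of 0.84 ± 0.07 (1.8-fold, limma adjusted p = 2.24e-06) and a difference of 0.12 (interval -0.06 to 0.30). Trib3, a pseudokinase that feeds back on ATF4 and its partner CHOP, had 8.86, 8.75 and 8.98 with 6877002 and 8.87, 8.92 and 8.80 with 6860766, against 8.34, 8.06 and 8.12 with vehicle. The pooled change was 0.69 ± 0.08 (limma adjusted p = 3.55e-05), and the difference between compounds was 0.00 with an interval of -0.19 to 0.19. Its other 2 probes changed by 0.52 and 0.30. Asns, which makes asparagine, rose by 0.41 ± 0.06 (adjusted p = 0.000607), and Aldh18a1, which makes the precursor of proline, rose by 0.43 ± 0.09 in the pool (adjusted p = 0.0116), by 0.26 with 6877002 and 0.60 with 6860766 (difference -0.34, interval -0.56 to -0.12, adjusted p = 0.0725), a call lost without vehicle replicate 1 (0.0567) or 2 (0.0757).

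Promoter sequences are shown for the 3 of these 4 genes whose window holds the ATF4 composite site TGATGNAA, searched on both strands. Each window runs from 250 bases before to 50 bases after the annotated transcription start, is taken from RefSeq on the build GRCm38.p6 and is printed 5′ to 3′ in the direction of the gene, with the match in capitals. The Trib3 window is chr2:152344011-152344310 on the minus strand with the match at position 265 of the window, counted from 1 at its 5′ end. The Chac1 window is chr2:119350992-119351291 on the plus strand with the match at position 58, and the Asns window is chr6:7693160-7693459 on the minus strand with the match at position 228.
Trib3: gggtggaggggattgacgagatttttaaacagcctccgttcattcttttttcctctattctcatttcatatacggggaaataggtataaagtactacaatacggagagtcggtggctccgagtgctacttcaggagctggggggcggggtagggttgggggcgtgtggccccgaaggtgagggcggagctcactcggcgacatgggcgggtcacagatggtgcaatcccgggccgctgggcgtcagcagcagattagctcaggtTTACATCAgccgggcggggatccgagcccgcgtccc
Chac1: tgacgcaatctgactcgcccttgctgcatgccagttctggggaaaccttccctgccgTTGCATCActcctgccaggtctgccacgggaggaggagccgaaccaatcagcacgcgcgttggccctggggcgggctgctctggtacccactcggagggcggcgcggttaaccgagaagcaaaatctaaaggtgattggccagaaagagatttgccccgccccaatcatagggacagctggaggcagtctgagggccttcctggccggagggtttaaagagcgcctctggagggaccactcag
Asns: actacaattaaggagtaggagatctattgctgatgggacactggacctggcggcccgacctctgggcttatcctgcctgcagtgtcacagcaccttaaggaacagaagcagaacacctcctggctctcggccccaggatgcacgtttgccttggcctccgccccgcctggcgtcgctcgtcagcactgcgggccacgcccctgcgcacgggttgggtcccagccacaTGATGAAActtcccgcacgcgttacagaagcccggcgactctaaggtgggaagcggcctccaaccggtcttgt
The capitals spell the site on the gene's strand in Asns and its reverse complement in Trib3 and Chac1. RefSeq windows were found for 27 of the 29 genes, 29 windows in all, and 9 of the 29 windows (31.0%) held the site, against 3.97% of all 32851 windows in the table. A match describes the letters and does not show that a factor binds there.

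Over a part of the cholesterol synthesis genes the pooled level was below vehicle. The pathway makes cholesterol from acetyl-CoA through mevalonate, squalene and lanosterol, and its enzymes are induced together by the factor SREBP2 when sterols are scarce. Of 15 measured genes, 8 fell (0.938% of all features did), 0 rose and 7 did not pass, and the median was -0.38. All 6 compound arrays lay below all vehicle arrays for 9 of the 15, against 5.3% of all features that did not overlap in either direction. Set against vehicle one at a time, 4 of the 15 were called lower with 6877002 and 9 with 6860766. The median was -0.26 with 6877002 and -0.50 with 6860766, and 5 of the 15 passed the test between compounds, each with the higher level with 6877002, against 4.52% of all features. Within slide 1 the median change, from 6860766, was -0.38, and within slide 4, from 6877002, it was -0.21.

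Lss, the enzyme that closes the sterol ring, had log2 values of 9.93, 9.98 and 10.15 with 6877002 and 9.63, 9.75 and 9.65 with 6860766, against 10.34, 10.47 and 10.52 with vehicle. The groups were stepped, with 6860766 lowest, and the pooled change was -0.59 ± 0.07 (limma adjusted p = 2.63e-05). Another Lss probe changed by 0.05. Nsdhl, a sterol dehydrogenase, changed by -0.61 ± 0.10 (adjusted p = 0.00123), and its other 3 probes by -0.59, -0.44 and -0.43. With the compound arrays as 1 group its adjusted p was 0.0643. Hsd17b7, which acts with Nsdhl in removing methyl groups from sterols, changed by -0.55 ± 0.07 (adjusted p = 0.000173), by -0.36 with 6877002 and -0.73 with 6860766. Mvd, which makes isopentenyl diphosphate, changed by -0.52 ± 0.07 (adjusted p = 0.000163) and had 9.56 to 10.02 on the 6 compound arrays, against 10.23, 10.25 and 10.23 with vehicle.

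Sterol regulatory elements, searched as TCACNCCAC on both strands, were found in 0 of 16 promoter windows of the 13 cholesterol genes with a window, against 1.24% of all windows, which says only that these letters are not in these windows. The looser TCACNCNAC was found in 1 of the 16 windows (6.25%), against 2.70% of all windows. Of the 12 measured genes of sterol sensing and uptake, 0 passed limma's test and 3 had an unadjusted p under 0.05, all 3 lower. Among 10 measured LXR targets and cholesterol efflux genes, Scd1 was the 1 that fell (0.938% of all features did) and 0 rose.

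Fatty acid synthesis genes, a neighbouring branch of lipid metabolism driven by SREBP1 and LXR, had 4 falls and 0 rises among 13 measured. Their median was -0.14, and 0.938% of all features fell. Fads2, which introduces a double bond into polyunsaturated fatty acids, had log2 values of 6.47, 6.54 and 6.41 with 6877002 and 6.43, 6.52 and 6.12 with 6860766, against 7.04, 7.24 and 6.87 with vehicle. Its compound arrays were all below vehicle, and the change was -0.64 ± 0.12 (limma adjusted p = 0.0038; 0.0607 without vehicle replicate 2 and 0.0507 with slide as a block). Another Fads2 probe changed by -0.22, and the mean of its probes by -0.43 (adjusted p = 0.122). Scd1, the stearoyl-CoA desaturase, changed by -0.49 ± 0.07 (adjusted p = 0.000342), Acsl3, an acyl-CoA synthetase, by -0.37 ± 0.08 (0.0239), and Acly, which makes cytosolic acetyl-CoA, by -0.32 ± 0.06 (0.00294). The Acsl3 call was lost without any 1 vehicle array, with adjusted p-values of 0.0607 to 0.129, and without 6877002 replicate 1 (0.0712). Within slide 1 the list's median change was -0.24 and within slide 4 it was -0.23.

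**Figure D3:**
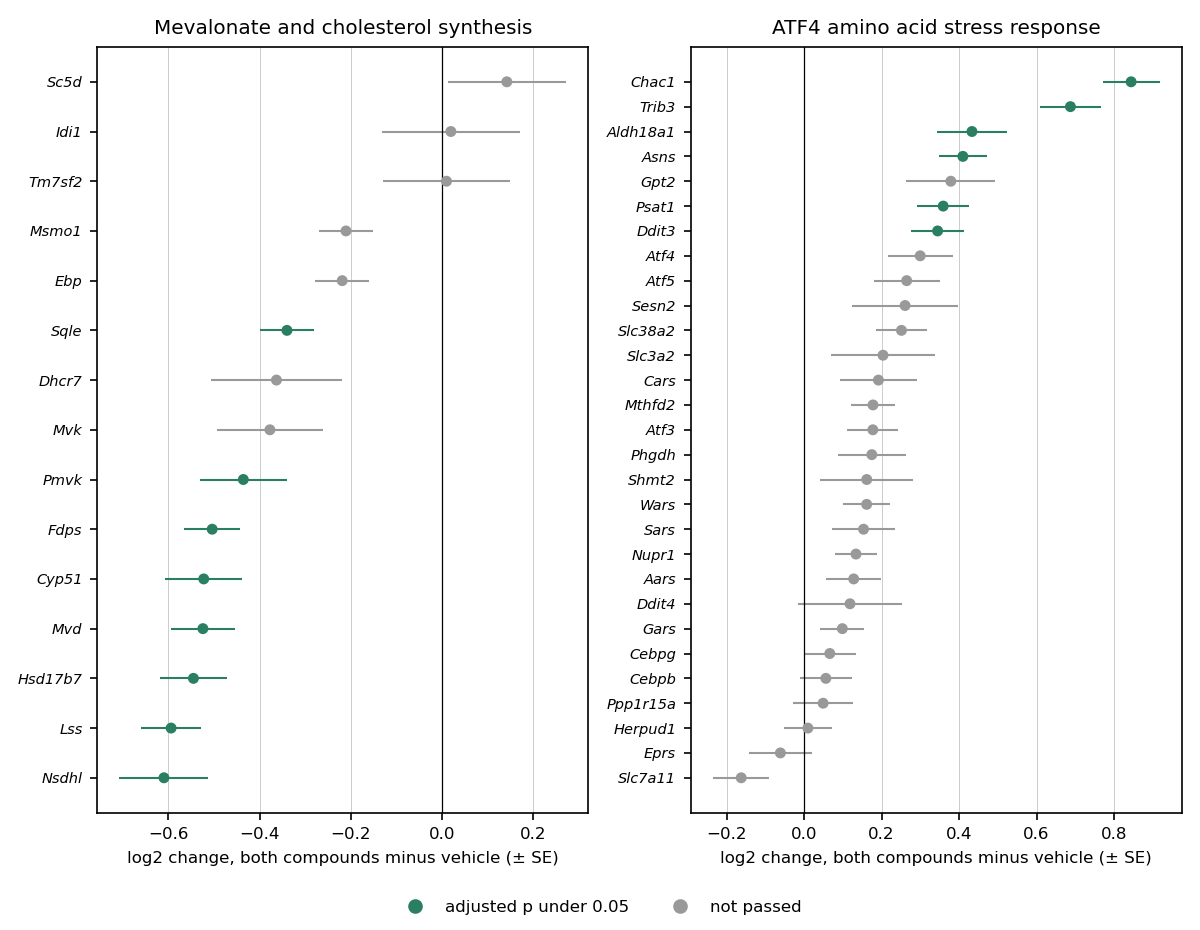
Pooled log2 change with its standard error (x axis) for each measured gene of cholesterol synthesis (left, 15 genes) and of the ATF4 response (right, 29 genes), ordered by size. Green points passed limma's test at an adjusted p under 0.05, 8 on the left, all below 0, and 6 on the right, all above 0.

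Lipid uptake receptors had 2 rises (1.2% of all features rose) and 0 falls among 10 measured, with a median of 0.17. Axl, a receptor for dying cells, rose by 0.36 ± 0.07 (limma adjusted p = 0.00415), by 0.56 with 6877002 and 0.16 with 6860766, and Trem2, a lipid-sensing receptor of macrophages, by 0.31 ± 0.07 (adjusted p = 0.0148), by 0.22 with 6877002 and 0.40 with 6860766. The difference between compounds passed the test for Axl (0.40, adjusted p = 0.0025) and not for Trem2 (-0.18, interval -0.34 to -0.02, adjusted p = 0.215). With the compound arrays as 1 group, the adjusted p was 0.22 for Axl and 0.111 for Trem2.

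Other large falls were those of Gstt4, Mgarp, Ak4, Pdzd9, Shisa3, Tsc22d1 and C1rl. Gstt4, a glutathione transferase, had log2 values of 4.97 to 5.48 over the 6 compound arrays, against 6.18, 5.90 and 6.13 with vehicle, with no overlap and a change of -0.89 ± 0.14 (limma adjusted p = 0.000799). The call held in each setting tried, where the change ran from -1.09 to -0.32, the smallest without background correction. Tsc22d1, a leucine zipper protein induced by TGF-β, changed by -0.63 ± 0.11 (adjusted p = 0.00264), with all compound arrays below vehicle. Shisa3, an inhibitor of Wnt and FGF receptor maturation, changed by -0.65 ± 0.15 (adjusted p = 0.0302). Pdzd9, a PDZ domain gene, was below detection on all 6877002 arrays and detected on 1 6860766 array. Its pooled change was -0.67 ± 0.16 (limma adjusted p = 0.032), a value that takes undetected signals as measured. C1rl, a complement-like protease, was below detection on all 6860766 arrays and detected on 1 6877002 array. Its pooled change, with undetected signals again taken as measured, was -0.61 ± 0.14 (adjusted p = 0.0228). The calls on Pdzd9, C1rl and Shisa3 were lost without any 1 of 7, 4 and 4 of the 9 arrays, and with slide as a block (adjusted p = 0.14, 0.328 and 0.109). The 2 unnamed probes ILMN_2744660 and ILMN_2744657 each fell by 1.09 (limma adjusted p = 2.24e-06).

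Mgarp, a mitochondrial protein, and Ak4, a mitochondrial adenylate kinase, had wide spreads. Ak4 had 6.54, 7.23 and 7.32 with 6877002 and 7.55, 6.67 and 6.57 with 6860766, against 7.82, 7.78 and 7.49 with vehicle, so 1 array of 6860766 overlapped vehicle. The changes were -0.72 ± 0.18 for Ak4 and -0.74 ± 0.17 for Mgarp (limma adjusted p = 0.0492 and 0.0302), and each call was lost without any 1 of 6 arrays. Of 21 glycolysis and hypoxia genes measured, 2 fell (0.938% of all features did) and 0 rose, with a median of -0.10. They were Slc16a3, the lactate exporter (-0.52 ± 0.12), and Pfkl, a phosphofructokinase (-0.32 ± 0.06). Another probe of each changed in the opposite direction, by 0.06 and 0.19.

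The aryl hydrocarbon receptor, a ligand-activated factor that senses aromatic compounds, had 4 measured genes on its list, of which 2 rose (1.2% of all features did). Ahrr, the repressor that the receptor itself induces, had log2 values of 8.52, 8.65 and 8.38 with 6877002 and 7.22, 7.07 and 7.33 with 6860766, against 7.18, 6.93 and 7.04 with vehicle. The 6860766 arrays overlapped vehicle and the 6877002 arrays stood apart. Its pooled change of 0.81 ± 0.09 (limma adjusted p = 3.55e-05) therefore came from changes of 1.47 with 6877002 and 0.16 with 6860766, which differed by 1.31 (interval 1.09 to 1.54, adjusted p = 2.22e-07), and with the compound arrays as 1 group its adjusted p was 0.349. Serpinb2, or plasminogen activator inhibitor 2, had a pooled change of 0.68 ± 0.15, from 1.89 with 6877002 and -0.53 with 6860766. Its limma adjusted p with the compound arrays as 1 group was 0.731.

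Interferon-stimulated genes lay on opposite sides of vehicle with the 2 compounds, and the pooled mean cancelled. They encode antiviral effectors and are switched on when cells sense interferon. Of 39 measured, 1 fell (0.938% of all features did), 0 rose and 38 did not pass the pooled test. The median was -0.02, which is close to that of all features. In the test between compounds 34 of the 39 passed, all with the higher level with 6877002, against 4.52% of all features. The median change was 0.29 with 6877002 and -0.35 with 6860766. The mean over the list lay 0.38, 0.34 and 0.26 above the vehicle mean on the 6877002 arrays and 0.47, 0.43 and 0.27 below it on the 6860766 arrays, while the vehicle arrays had -0.09, 0.05 and 0.04. Within slide 1 the median change, from 6860766, was -0.33, and within slide 4, from 6877002, it was 0.23.

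**Figure D4:**
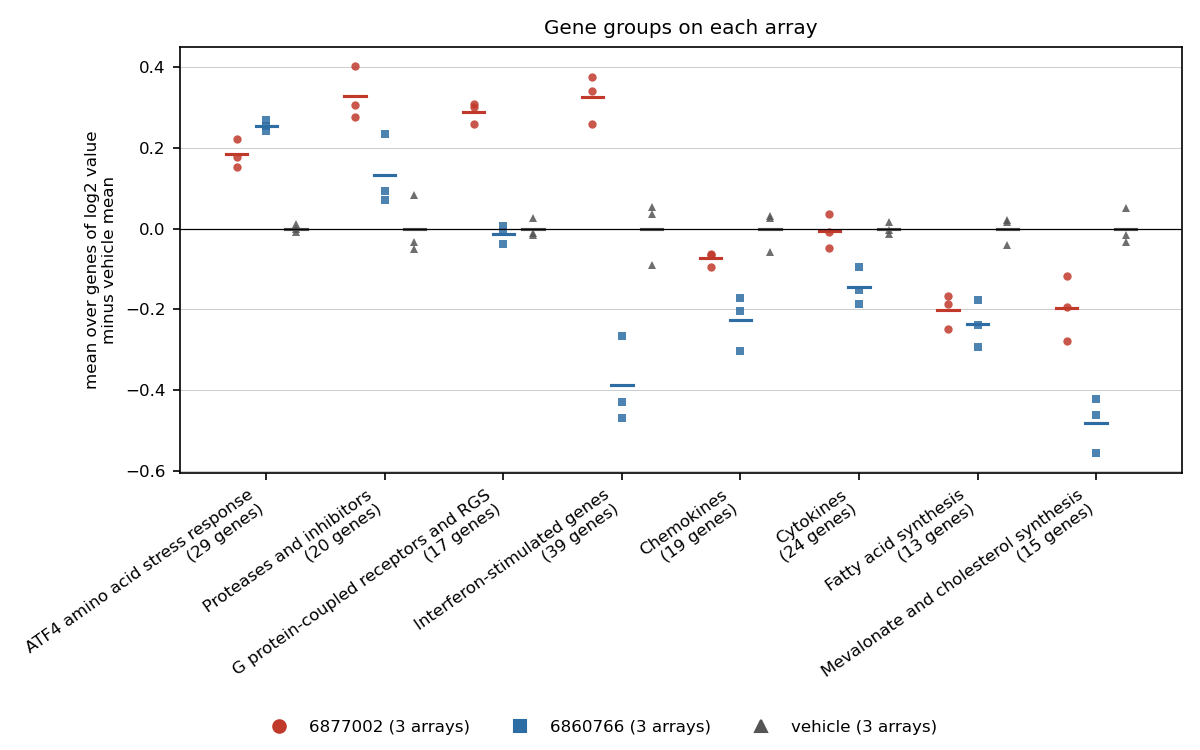
For 8 gene groups (x axis, with the number of genes measured), each symbol is 1 array's mean over the group of the log2 value minus the gene's vehicle mean (y axis), and bars are means of 3 arrays. The ATF4 group is above the vehicle arrays and the cholesterol and fatty acid groups below them on every compound array, while the interferon group lies above vehicle with 6877002 and below it with 6860766.

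Cxcl10, the interferon-induced chemokine for CXCR3-bearing lymphocytes, was the 1 pooled fall. It had log2 values of 12.91, 12.99 and 12.96 with 6877002 and 11.67, 11.64 and 11.77 with 6860766, against 12.72, 12.95 and 12.78 with vehicle. The 6877002 arrays overlapped vehicle and the 6860766 arrays were all lower, so that a pooled change of -0.49 ± 0.06 (limma adjusted p = 4.24e-05) joined 0.14 with 6877002 and -1.12 with 6860766. With the compound arrays as 1 group the adjusted p was 0.593. Another Cxcl10 probe changed by -0.17, and the mean of its probes by -0.33 (limma adjusted p = 0.166). Irf1, a transcription factor that drives part of the interferon program, had a pooled change of 0.27 ± 0.06 (adjusted p = 0.0142) from 0.49 with 6877002 and 0.04 with 6860766. The Irf1 call was lost without vehicle replicate 1 (adjusted p = 0.123) or 2 (0.0523). It was also lost with arrays scaled to a common median (0.454), the mean of its probes (0.15) and the compound arrays as 1 group (0.429). Irf7, the factor that amplifies type I interferon, had -0.10 in the pool (interval -0.25 to 0.06) from 0.41 with 6877002 and -0.60 with 6860766, a difference of 1.00 (adjusted p = 2.86e-07).

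The Cxcl10 window, shown because this gene carries the 1 pooled call of the group, is chr5:92348840-92349139 on the minus strand of GRCm38.p6 (RefSeq), with the interferon-stimulated response element GAAANNGAA in capitals at position 38 from its 5′ end.
Cxcl10: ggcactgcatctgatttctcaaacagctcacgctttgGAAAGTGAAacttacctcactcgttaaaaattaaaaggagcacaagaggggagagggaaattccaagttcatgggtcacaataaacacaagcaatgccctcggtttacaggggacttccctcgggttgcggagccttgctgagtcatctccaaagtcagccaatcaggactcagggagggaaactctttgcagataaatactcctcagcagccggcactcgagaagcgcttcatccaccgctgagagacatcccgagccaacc
With both strands searched, 21 of 36 windows of 30 matched interferon genes (58.3%) held this motif, against 8.56% of all windows. The letters are a description and not a measured binding site.

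The 12 named genes with the largest difference among those on opposite sides of vehicle were Serpinb2, Gm4951, P2ry13, Ch25h, Ifi214, Mx1, Nos2, Cxcl10, Ifit1bl1, Ifi211, Oasl1 and Ifi213. All 12 were higher with 6877002 than with 6860766, by 1.21 to 2.42 on the log2 scale. Among all 515 features that differed, 379 were. The pooled test called 3 of the 12, Serpinb2, P2ry13 and Cxcl10. Gm4951, an interferon-inducible GTPase, had 8.62, 8.40 and 8.53 with 6877002 and 6.63, 6.93 and 7.14 with 6860766, against 7.18, 7.59 and 7.61 with vehicle. Its vehicle arrays lay between those of the compounds, and the pooled change was 0.25 (interval 0.01 to 0.49, limma adjusted p = 0.353) beside a difference of 1.62. Nos2, the inducible nitric oxide synthase, had 6.87, 6.97 and 7.13 with 6877002 and 5.56, 5.73 and 5.90 with 6860766, against 6.21, 6.36 and 6.00 with vehicle, which gave a pooled change of 0.17 (adjusted p = 0.589). Ch25h, which makes 25-hydroxycholesterol, had a pooled change of -0.36 (adjusted p = 0.0665) from 0.31 with 6877002 and -1.04 with 6860766. In Ifi211 the 6860766 replicates ran from 5.77 to 7.18 and overlapped vehicle (6.56 to 7.37).

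**Figure D5:**
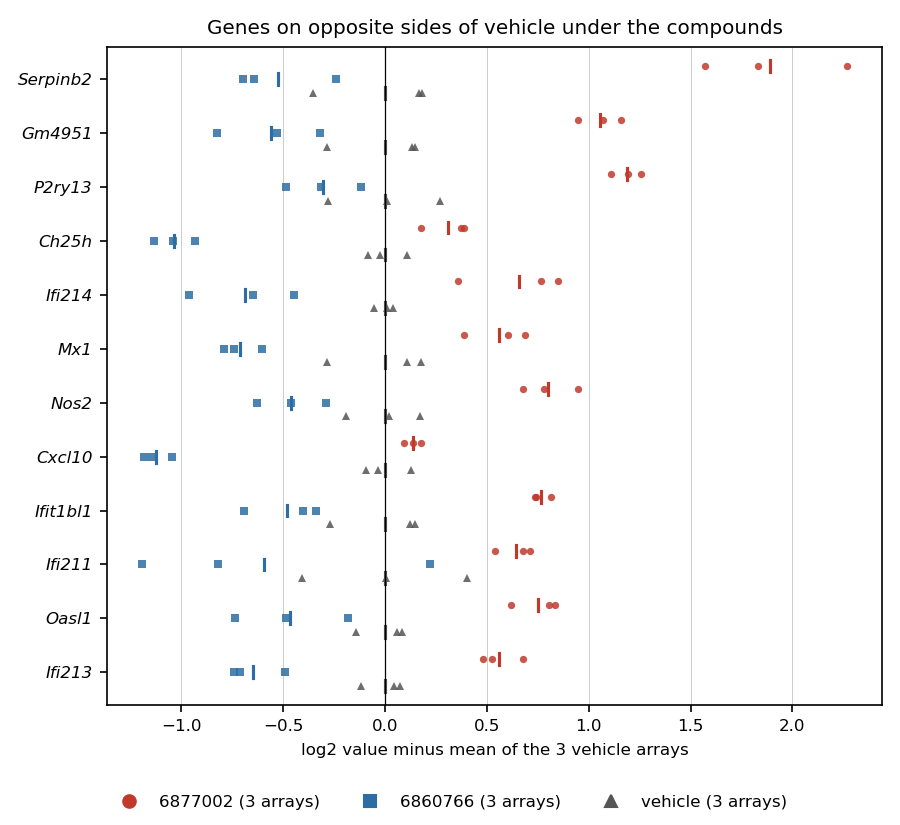
Each symbol is 1 array's log2 value minus the mean of the 3 vehicle arrays (x axis) for the 12 genes whose compound means lie on opposite sides of vehicle and differ most. Bars are group means. Vehicle sits between the compounds for most genes, near 6877002 for Cxcl10 and near 6860766 for P2ry13.

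Among 23 measured genes of antigen presentation and co-stimulation 2 rose (1.2% of all features did) and 0 fell, with a median of 0.00. Of the 23, 9 passed the test between compounds, against 4.52% of all features. Ciita, the transactivator of class II genes, rose by 0.59 ± 0.14 (limma adjusted p = 0.0247), from 0.84 with 6877002 and 0.34 with 6860766, and H2-Aa, a class II chain, by 0.45 ± 0.09 (adjusted p = 0.00641), from 0.69 with 6877002 and 0.20 with 6860766. With the compound arrays as 1 group their adjusted p was 0.18 and 0.223. Hdc, which makes histamine, was the 1 of 13 genes of eicosanoid, histamine, nitric oxide and arginine metabolism to fall (0.938% of all features did). It had -0.47 ± 0.08 in the pool (adjusted p = 0.00244) from -0.08 with 6877002 and -0.85 with 6860766. With the compound arrays as 1 group its adjusted p was 0.397.

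Of the 27 cell cycle genes measured, 2 rose (1.2% of all features did) and 0 fell, with a median of 0.01. Ccnd1, or cyclin D1, had log2 values of 9.92, 10.14 and 9.93 with 6877002 and 10.28, 9.84 and 9.87 with 6860766, against 9.48, 9.14 and 9.43 with vehicle. All compound arrays were above vehicle, with a change of 0.64 ± 0.10 (limma adjusted p = 0.000553) and a difference between compounds of 0.00 (interval -0.23 to 0.23). Mxd1, a MYC antagonist, had a pooled change of 0.50 ± 0.09, from 1.07 with 6877002 and -0.07 with 6860766. With the compound arrays as 1 group the limma adjusted p of Mxd1 was 0.556.

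Single members changed on 3 further lists (0.938% of all features fell). Cish, a STAT5-induced suppressor of cytokine signalling, was the 1 of 16 STAT and SOCS genes to fall (-0.54 ± 0.10, limma adjusted p = 0.00325). Itgal, a chain of the adhesion molecule LFA-1, was the 1 of 19 adhesion genes (-0.44 ± 0.08, adjusted p = 0.00489), and Dusp16, a phosphatase of JNK, the 1 of 22 MAP kinase phosphatases and immediate early genes (-0.43 ± 0.07, adjusted p = 0.00264). Bmp1, a procollagen protease, was with Inhba 1 of 2 to fall among 11 growth factor and activin genes (-0.48 ± 0.12, adjusted p = 0.0439), a call lost without any 1 of 6 of the 9 arrays, with adjusted p-values up to 0.215. Cish, Itgal and Dusp16 changed alike in direction with both compounds, by -0.66, -0.48 and -0.46 with 6877002 and by -0.42, -0.41 and -0.41 with 6860766. None of the 3, nor Bmp1, passed the test between compounds.

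Stress lists other than that of ATF4 had no calls in limma's pooled test. Of 16 endoplasmic reticulum chaperones 0 passed and 1 had an unadjusted p under 0.05, of 12 cytosolic heat shock proteins 0 and 2, and of 18 NRF2 targets 0 and 3. Their median changes were 0.03, -0.03 and 0.00. The 11 housekeeping genes had 0 calls, 1 unadjusted p under 0.05 and a median of -0.03.

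Calls on 16 of the 61 named genes with a pooled call held in all 28 settings tried. They were Pdgfa, Il7r, Chac1, Plau, Cd28, Emp1, Slco4a1, Trib3, Ccnd1 and Asns among the genes that rose and Csf2, Gstt4, Cx3cl1, Hsd17b7, Mvd and Scd1 among those that fell. For Pdgfa the change ran from 0.89 to 1.19 over these settings, for Il7r from 0.70 to 1.10, and for Chac1 from 0.72 to 0.91. Without any 1 array, 36 of the 61 calls remained. Those lost without at least 3 of the 9 arrays, left out in turn, were the calls on Nfkbiz (8 arrays), Pdzd9 (7), Ak4, Bmp1, Dcstamp, Mgarp and P2ry13 (6 each), Ciita (5), Acsl3, C1rl, Cd40 and Shisa3 (4 each), and Serpinb2 and Slc16a3 (3 each).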

How the data were processed

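Total RNA of 9 cultures was measured on Illumina mouse bead arrays of 45281 probes. The deposited tables hold a raw probe intensity and a detection p-value per probe and array, per the file headers, and the series table holds the authors' normalized log2 values. The submitters' processing notes name GenomeStudio 2011.1, R 3.1.3 and limma 3.22.7, without giving the order of steps. Background correction and quantile normalization of the deposited intensity with limma's neqc came within 0.0161 of the authors' log2 values at every probe, so these log2 values already carry that normalization, which gives arrays equal distributions.

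Probes with a detection p-value under 0.05 on at least 3 of 9 arrays were kept (16415), and the probe with the highest mean stood for its gene, which left 11406 features, 9081 of them with a symbol. Of all probes, 34885 have 1 symbol in the platform annotation, 18 have several and 10378 have none, and 34807 were matched to current names by gene ID. Analyses used R 4.3.3 with limma 3.58.1 and Python 3.11.15 with matplotlib 3.10.9. A linear model with 1 mean per group was fitted to all 9 arrays with a trended prior variance, and Benjamini-Hochberg adjustment ran over all 11406 features at a threshold of 0.05. The number of arrays limits the precision, and intervals are at the 95% level. For Dcstamp, which was below detection on every vehicle array, the fold is a bound on the vehicle side alone and was not tested. It was taken per array against the higher of the gene's own signal and the lowest detected signal.

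Genes were named by a rule. It took the 12 largest rises and 12 largest falls with both compound means on the same side of vehicle. From each list it took up to 4 called genes with the largest change. Added to these were the 12 largest differences between compounds on opposite sides of vehicle. A further 27 genes were taken whatever their values, of which 18 were measured. The 39 gene lists hold 688 genes, 499 of them measured. The arrays compared, the lists and the rule were chosen with earlier results of these data known. Promoter windows came from RefSeq tables of GRCm38.p6, 32851 windows of 27025 genes.

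Same-mouse arrays did not deviate together: the correlation of their deviations from the group means ran from -0.147 to 0.159 over 9 pairs, 1 of them above 0.1, so no mouse block was used. Arrays of different groups on 1 slide had correlations of 0.039 to 0.159 over 5 pairs, 2 of them above 0.1. With slide as a random block the consensus correlation was 0.22. The main test had no slide block, and slide entered as an alternative. Alternatives covered normalization, background, the detection filter, probe choice, the variance model, array weights, slide and number blocks, 1 compound group and leaving out arrays or mice. No slide held both compounds with vehicle, so the pooled change could not be computed within a slide, and each compound was set against vehicle within slides 1 and 4.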

Additional observations from a re-analysis of the deposited data

Results flagged for a closer look

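The test of 6877002 minus 6860766 passed for 515 features at a limma adjusted p under 0.05, and for 33 of the named genes, each of them higher with 6877002. These genes carry a difference between the compounds that the pooled mean does not show. Groups of 3 arrays were too small for a search for single outlying arrays.

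On opposite sides of vehicle, the log2 difference was 2.42 for Serpinb2, 1.62 for Gm4951, 1.49 for P2ry13, 1.35 for Ch25h, 1.34 for Ifi214, 1.27 for Mx1 and 1.26 for Nos2. It was 1.26 for Cxcl10, 1.24 for Ifit1bl1, 1.24 for Ifi211, 1.22 for Oasl1, 1.21 for Ifi213, 1.14 for Mxd1 and 1.00 for Irf7.

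Among genes whose compound means were both above vehicle, the difference was 1.41 for Spint1, 1.31 for Ahrr, 1.15 for P2ry14, 0.96 for Il15ra, 0.91 for Lpar6, 0.76 for Pdgfa and 0.71 for Rgs1. It was 0.60 for Cd28, 0.49 for H2-Aa, 0.47 for Csf2rb2, 0.45 for Irf1, 0.41 for Il1rn, 0.40 for Axl and 0.36 for Il7r.

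Among genes whose compound means were both below vehicle, the level was higher with 6877002 than with 6860766 by 0.77 for Hdc, 0.43 for Nsdhl, 0.37 for Hsd17b7, 0.34 for Lss and 0.29 for Scd1.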

How the results depend on the processing

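The 244 pooled calls became 155 with arrays scaled to a common median, 81 without the variance trend and 81 with the compound arrays as 1 group. They numbered 97 to 296 when an array or a mouse was left out. The 515 calls between compounds became 307 with median scaling, 369 with slide set as a block and 1132 with array weights. They numbered 193 to 1094 when an array or a mouse was left out. The 1 gene with an exact permutation p under 0.05 became 2 genes with median scaling, and 1 to 2 without an array. The pooled count was 188 with slide as a fixed block, 269 with slide as a random block, 247 with slide set as a block, 243 with recomputed values and 188 to 270 over other choices of probe. The cause of these shifts was not tested.

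The labels number mice and replicates, but the arrays were not paired by the data, and fits with mouse number as a replicate block called 254 in the pool and 497 between compounds, and with title number 253 and 514.

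The median of the cytokine list (-0.08) was -0.14 with median scaling, -0.18 for genes detected on all 9 arrays, -0.20 within slide 1 and 0.035 within slide 4. The chemokine median was -0.18 with median scaling and -0.15 within slide 1. The receptor median was 0.055 with slide set as a block, -0.069 within slide 1, 0.10 within slide 4 and -0.031 to 0.049 without 1 array or mouse. The interferon median was -0.33 within slide 1 and 0.23 within slide 4. The cholesterol median was -0.21 within slide 4 and -0.46 to -0.32 without 1 array or mouse. The fatty acid median was -0.19 for genes detected on all arrays, -0.20 with the mean of a gene's probes, -0.24 within slide 1, -0.23 within slide 4 and -0.22 to -0.10 without 1 array or mouse. The ATF4 median was 0.14 without background correction and 0.16 to 0.21 without 1 array or mouse. The protease median was 0.054 within slide 1 and 0.12 to 0.25 without 1 array or mouse. The median of G protein-coupled receptors was 0.042 without background correction, 0.034 without the detection filter, 0.12 with slide as a block, 0.11 with slide set as a block, 0.016 within slide 1, 0.29 within slide 4 and 0.046 to 0.14 without 1 array or mouse. The growth factor median was -0.0055 with the mean of a gene's probes and 0.018 to 0.13 without 1 array or mouse. Of 2432 values of named genes, 276 lost a call, 9 gained one and 2147 stayed on their side of the threshold. The sign differed in 67 of them, over 14 genes, none with a call. Median scaling moved the median of all features by 0.02.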
